A study of Mus musculus with 30 samples.

Results

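The genes of prostaglandin and lipoxygenase metabolism were examined in RNA-seq data of the mouse colon. They were 10 of the 46078 genes counted, listed by name for their place in the pathway, and each was found by its symbol and gene identifier: Ptgs1, Ptgs2, Ptges, Ptgis, Hpgd, Ptger4, Alox15, Alox5, Alox5ap and Pla2g4a. The 30 C57BL/6J mice gave 1 colon library each and formed 5 groups of 6, namely females and males on CD, females and males on HFD, and males on HFD that received E2. CD is a low-fat control diet and HFD a matched high-fat diet in which most of the energy comes from fat, and both were fed for 13 weeks from a young age. All mice had 9 intraperitoneal injections near the end of this period, with vehicle in the first 4 groups and with E2 (17β-estradiol, 0.5 mg/kg body weight) in the last. E2 on its own always stands for estradiol here, and prostaglandin E2 is written out. The females kept their ovaries, none of the groups carried an introduced allele, and a group of E2-treated females or of E2-treated CD males was not analysed here.

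Arachidonic acid is cut from membrane phospholipids by phospholipases such as the enzyme encoded by Pla2g4a. The cyclooxygenases, encoded by Ptgs1 and Ptgs2, turn it into prostaglandin H2, from which terminal synthases make the individual prostanoids, prostaglandin E2 (Ptges) and prostacyclin (Ptgis) among them. Prostaglandin E2 acts on receptors such as EP4 (Ptger4) and is inactivated by 15-hydroxyprostaglandin dehydrogenase (Hpgd). Lipoxygenases take the same substrate elsewhere: 5-lipoxygenase (Alox5) with its activating protein (Alox5ap) starts the leukotrienes, and the 12/15-lipoxygenase (Alox15) makes hydroxy fatty acids and precursors of lipoxins. In the colon, Ptgs1 is known as the constitutive and Ptgs2 as the inducible cyclooxygenase, and Hpgd is known as an enzyme of the differentiated epithelium.

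The counts on genes ranged from 8667177 to 17243712 per library (median 11530915), and levels are given as TPM, which scale for gene length. Markers of stratified squamous epithelium, which the colon itself lacks, summed to over 100 TPM in 6 libraries, HFD females 1, 3, 4 and 5 and HFD males 2 and 4, and to no more than 17.0 TPM in every other library. Of the 8 colonocyte markers, Vil1, Lgals4, Slc26a3, Car1, Krt20, Aqp8 and Cdx1 had a count in 30 of 30 libraries. Cdx2 had a count in 25, at up to 1.09 TPM. The 8 markers summed to between 1522 and 3778 TPM. Most of that sum was Lgals4, which averaged from 1590 TPM in HFD females to 1830 TPM in HFD males. A bulk library cannot tell fewer cells of a type from less RNA per cell.

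Hpgd was the most abundant of the 10 genes, at 117 ± 22.3 TPM (mean ± SD, n = 30), and Alox5 the least, at 0.679 ± 0.486 TPM (n = 30). Between them came Pla2g4a at 24.9 ± 5.28, Ptgs1 at 12.6 ± 3.06, Ptger4 at 5.83 ± 1.08, Ptgis at 2.98 ± 1.27, Ptges at 2.24 ± 0.691, Ptgs2 at 1.79 ± 0.656, Alox5ap at 1.60 ± 0.638 and Alox15 at 0.946 ± 0.620 TPM. The order of the first 4 held in 30 of 30 libraries, and Ptger4 was above Ptgis in 29. Below that the neighbours overlapped: Ptgis was above Ptges in 22 libraries, Ptges above Ptgs2 in 21, Ptgs2 above Alox5ap in 21, Alox5ap above Alox15 in 21 and Alox15 above Alox5 in 20. The breakdown enzyme gene Hpgd stood far above Ptges. The ratio of Hpgd to Ptges in TPM had group medians between 35.6 in HFD females and 66.2 in HFD males. Ptges is not the only gene described as a prostaglandin E synthase, and Ptges2 and Ptges3 averaged 7.01 and 36.2 TPM. The constitutive cyclooxygenase was above the inducible one in each group, with a lowest ratio of Ptgs1 to Ptgs2 of 3.0, in a CD female.

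**Figure D1:**
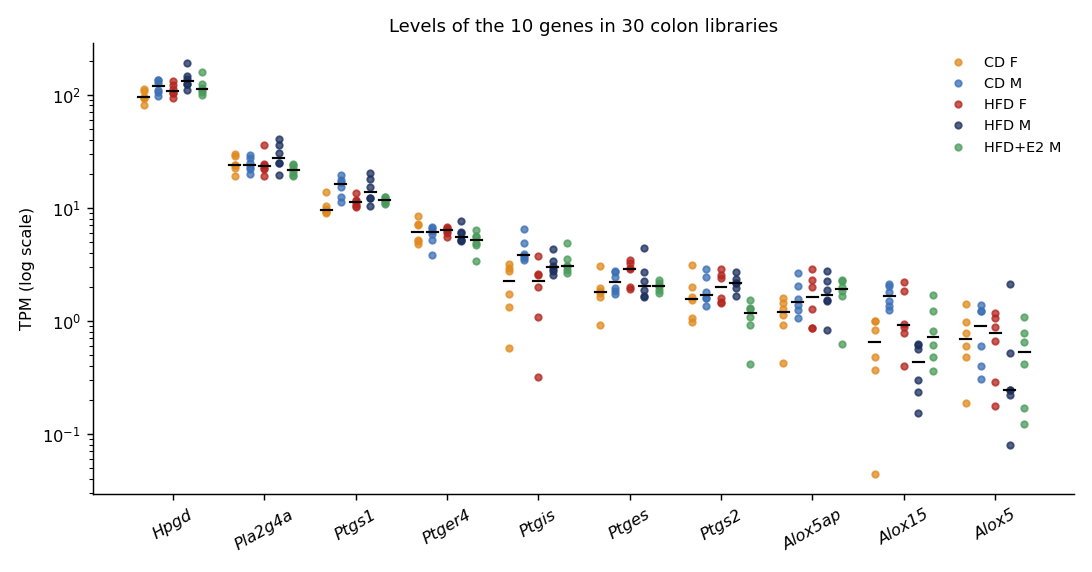
Levels of the 10 genes in each of the 30 libraries, in TPM on a log axis, ordered by their mean over all libraries. Points are animals coloured by group and black lines are group medians; Hpgd lies near 117 TPM and Alox15 and Alox5 at or below 2.20 TPM in every animal.

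Depth set what could be compared. Hpgd had 1128 to 3139 counts per library and Pla2g4a 448 to 978, whereas Alox15 had 7 to 55, Alox5 7 to 48 and Alox5ap 8 to 44. All 10 genes passed edgeR's filter on low counts in each comparison. The counts and the TPM values come from separate programs, and over the 30 libraries their Pearson correlation on the log2 scale ran from 0.678 for Ptgs1 and 0.693 for Alox5 to 0.944 for Ptgs2 (genes matched within the same libraries, which share depth).

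Few of the 10 genes differed in any comparison, and Alox15, Ptgs2 and Ptgis made up all the calls. A gene was called a DEG where edgeR's quasi-likelihood test gave an unadjusted p under 0.05 and the size of the log2 fold change exceeded 0.4. The fits behind these calls are the main fits. Between CD females and CD males, 2 of the 10 were DEGs, Alox15 and Ptgis, both lower in females, against 9.15% of all genes tested. Between HFD females and HFD males, 1 was a DEG, Alox15, higher in females (background 3.09%). HFD against CD called Alox15 in each sex, 1 gene higher in females (background 3.67%) and 1 gene lower in males (background 2.9%). E2 in HFD males called 1 gene, Ptgs2, which was lower (background 5.87%). E2-treated HFD males against CD males called 2, Alox15 and Ptgs2, both lower (background 5.99%). The response to HFD differed between the sexes for 1 gene, Alox15 (interaction of sex and diet, background 5.18%).

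After Benjamini-Hochberg adjustment across every gene tested, 1 of these calls held, Alox15 between CD females and CD males, where 2.74% of all genes passed. In the other comparisons edgeR passed 0 of the 10 genes, against backgrounds of 0.0988% for HFD females and HFD males, 0.0199% for HFD in females, 0.0% for HFD in males, 0.00666% for E2 in HFD males, 0.212% for E2-treated HFD males against CD males and 0.0% for the interaction. At an unadjusted p under 0.05 these comparisons held 1, 1, 1, 1, 3 and 1 of the 10 genes, in the same order. DESeq2 passed 1 gene by adjusted p for HFD in males, Alox15, and 1 for E2 in HFD males, Ptgs2, and 0 in the other 4. The backgrounds above are those of edgeR and do not apply to these DESeq2 calls. The share of all genes that DESeq2 passed is not given here.

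The median log2 fold change of the 10 genes was -0.23 between CD females and CD males, where the median of all genes tested was 0.011. It was -0.10 between HFD females and HFD males, 0.10 for HFD in females, -0.06 for HFD in males and -0.01 for E2 in HFD males, with medians of all genes within 0.0067 of 0. Between E2-treated HFD males and CD males it was -0.16, and for the interaction 0.16. The estimate was negative for 8 of the 10 genes between CD females and CD males and for 8 of the 10 between E2-treated HFD males and CD males, 2 comparisons that share the CD males.

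**Figure D2:**
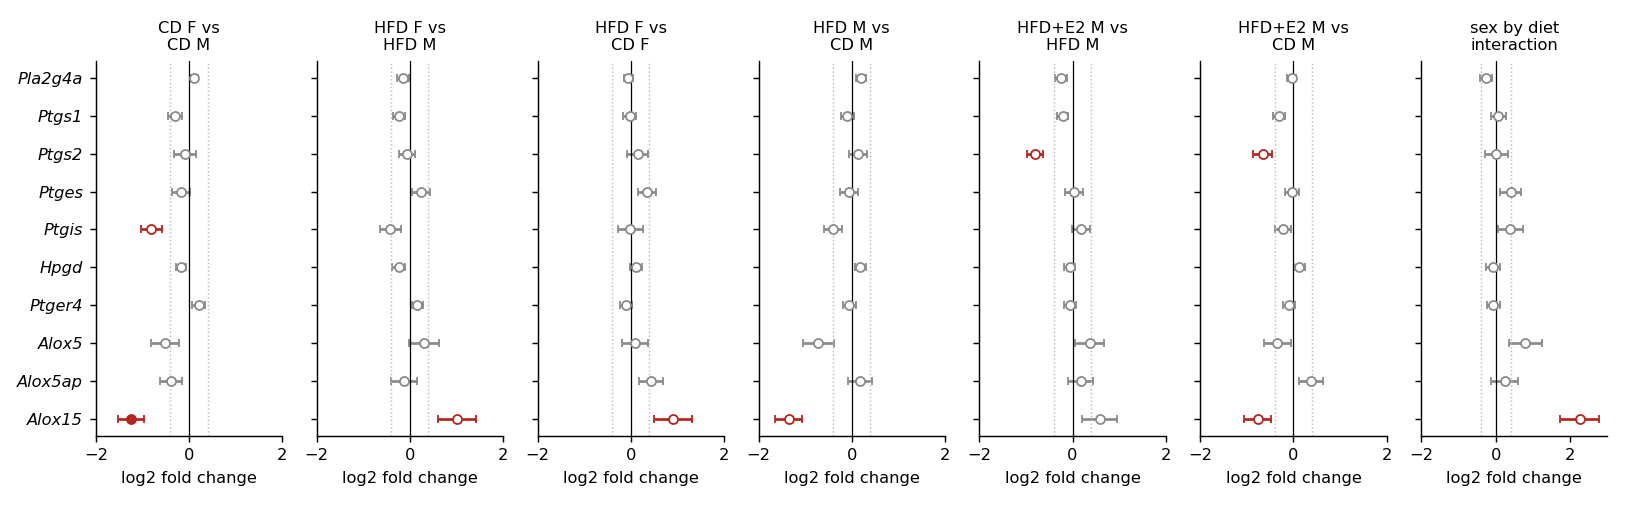
Log2 fold changes (points) with standard errors (bars) of the 10 genes in the 6 comparisons and in the interaction of sex and diet, with the first group named over the second. Red marks p under 0.05 beyond the dotted lines at 0.4, and a filled point marks an adjusted p under 0.05: Alox15 carries red points in 6 of the 7 panels and the filled one, at -1.25 for CD females against CD males.

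Pla2g4a, the cytosolic phospholipase A2 that releases arachidonic acid, was the second most abundant gene and passed in no comparison. Its level ran from 18.9 to 29.8 TPM in CD females (median 23.7) and from 20.0 to 29.4 in CD males (median 24.01). In HFD females it ran from 19.2 to 35.6 (median 23.1), in HFD males from 19.4 to 40.2 (median 27.5) and in HFD males given E2 from 19.1 to 24.1 (median 21.6). All groups overlapped, and the HFD males reached highest. The lowest p was that of E2 in HFD males, with a log2 fold change of -0.25 ± 0.13 (SE, p = 0.0640, adjusted p = 0.506, exact permutation p = 0.0758). HFD in males gave 0.20 ± 0.11 (adjusted p = 0.826).

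Ptgs1, the constitutive cyclooxygenase, had group estimates that were lower in females than in males on either diet, and neither difference was a DEG. It ran from 8.94 to 13.8 TPM in CD females (median 9.51) and from 11.3 to 19.5 in CD males (median 16.01), so that the groups overlapped in part. The log2 fold change between them was -0.30 ± 0.15 (SE, p = 0.0576, adjusted p = 0.360, exact permutation p = 0.0996). It became a DEG with the smooth muscle score as a covariate (-0.66), without CD female 1 (-0.43) and in log2(TPM + 0.1) or log2(TPM + 1) (exact permutation p = 0.00866 in both). HFD females ran from 10.2 to 13.4 (median 11.2) and HFD males from 10.4 to 20.1 (median 13.7), a difference of -0.23 ± 0.13 (adjusted p = 0.872). In TPM, E2-treated males were the most uniform, from 10.7 to 12.4 (median 11.6). In log2 CPM, the scale of the fits, they ran from 3.857 to 4.357. On that scale HFD females ran from 3.909 to 4.413 and HFD males from 4.257 to 4.792, so the evenness was seen in TPM only. Against CD males the E2-treated males gave -0.31 ± 0.13 (p = 0.0314, adjusted p = 0.412, exact permutation p = 0.0455), which is under the fold minimum of 0.4. Ptgs1 shares up to 148 bases of an exon with the antisense gene Gm43621, and whether the counting used strand is not given in the sources used here.

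Ptgs2, the inducible cyclooxygenase (ENSMUSG00000032487, GRCm38 chr1:150100031-150108227, plus strand), was lower in HFD males given E2 than in HFD males given vehicle, and it passed in no comparison of sex or diet. The HFD males had 2.35, 1.66, 2.14, 2.17, 1.93 and 2.69 TPM, and the E2-treated males 1.26, 0.417, 1.07, 0.910, 1.54 and 1.30 TPM. Each E2-treated animal was below each vehicle-treated HFD male. The means were 1.08 ± 0.390 and 2.16 ± 0.354 TPM (SD, n = 6 each). The log2 fold change was -0.80 ± 0.18 (SE, p = 2.57e-04, adjusted p = 0.389), and the exact permutation test (two-sided, on log2 CPM) gave 0.00216, the smallest p that 6 animals against 6 allow. The difference kept its sign and stayed past the unadjusted threshold in 23 of 23 alternatives, with log2 fold changes from -1.003 to -0.62 and adjusted p-values from 0.0110, in DESeq2, to 0.837, without the libraries with squamous markers.

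Ptgs2 in CD males ran from 1.34 to 2.89 TPM (median 1.69), and the E2-treated group fell below it by 0.66 ± 0.21 on the log2 scale (p = 0.00514, adjusted p = 0.215, exact permutation p = 0.0130). In TPM the groups overlapped by 1 E2-treated animal, at 1.54. In log2 CPM E2-treated males 5 and 6, at 2.472 and 2.414, were above the lowest CD male, at 2.292. CD females ran from 0.965 to 3.13 TPM (median 1.57) and HFD females from 1.44 to 2.83 (median 1.98). Those groups overlapped throughout. The log2 fold change of Ptgs2 on HFD was 0.16 ± 0.23 in females (adjusted p = 0.999) and 0.14 ± 0.19 in males (adjusted p = 0.913), neither past the threshold, and the sexes gave -0.08 ± 0.24 on CD (adjusted p = 0.921) and -0.06 ± 0.17 on HFD (adjusted p = 0.961). The ratio of Ptgs1 to Ptgs2 in TPM ran from 5.38 to 10.8 in HFD males (median 5.65) and from 7.51 to 27.9 in E2-treated males (median 9.87). Both E2 comparisons share the E2-treated animals.

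Since Ptgs2 was the one of the 10 genes called lower with E2 in HFD males, the 250 bases before its annotated start are given here from RefSeq (GRCm38.p6, chr1:150099781-150100030, plus strand), with a match to the C/EBP letters in capitals.
Ptgs2: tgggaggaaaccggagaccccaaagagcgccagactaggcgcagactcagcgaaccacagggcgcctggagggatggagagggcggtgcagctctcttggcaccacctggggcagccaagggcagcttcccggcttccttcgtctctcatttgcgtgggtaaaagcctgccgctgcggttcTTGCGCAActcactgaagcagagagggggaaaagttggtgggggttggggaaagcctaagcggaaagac
The window searched on both strands held these 250 bases and the next 50, 300 in all, and the same window was searched in 32851 annotated promoters. The C/EBP palindrome TTGCGCAA lay at bases -69 to -62 from the start and occurs in 0.183% of the promoters. An E-box, CACGTG, lay at bases 17 to 22 after the start and occurs in 7.15%. The letters of the full estrogen response element, GGTCA and TGACC with any 3 bases between them, were not in the Ptgs2 window and occur in 0.07% of the promoters, and those of the cyclic AMP response element, TGACGTCA, were not in it and occur in 1.79%. These matches describe letters and not binding. Of the 10 genes, 7 had an entry in the promoter table, and Alox15, Ptgis and Alox5ap had none.

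Ptges, which encodes the inducible prostaglandin E synthase, passed in no comparison in the main fits. It ran from 0.908 to 3.06 TPM in CD females (median 1.80), from 1.72 to 2.74 in CD males (median 2.19), from 1.90 to 3.42 in HFD females (median 2.88), from 1.61 to 4.38 in HFD males (median 2.04) and from 1.77 to 2.27 in E2-treated males (median 2.01). The groups overlapped, with HFD females highest by their median. HFD against CD in females gave a log2 fold change of 0.35 ± 0.20 (SE, adjusted p = 0.982), and the same contrast in males -0.06 ± 0.20 (adjusted p = 0.951). In females it was a DEG with the smooth muscle score as a covariate, without CD female 2 and in log2(TPM + 0.1). The interaction of sex and diet was 0.40 ± 0.28 (adjusted p = 0.781).

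Ptgis, the prostacyclin synthase (ENSMUSG00000017969, GRCm38 chr2:167191805-167240604, minus strand), was lower in CD females than in CD males. CD females had 2.75, 3.19, 1.70, 1.31, 0.572 and 2.93 TPM, and CD males 6.48, 4.86, 3.46, 3.85, 3.58 and 3.74 TPM. The groups did not overlap, and 1 CD male stood above the rest. The log2 fold change was -0.81 ± 0.22 (SE, p = 0.00236, adjusted p = 0.0641), and the exact permutation test gave 0.00216. Over the alternatives the adjusted p ran from 0.0112 to 0.126, the highest without CD male 2, and it fell on either side of 0.05. With the smooth muscle score as a covariate the difference grew to -1.33 (adjusted p = 0.0341).

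On HFD the sexes overlapped in Ptgis, with females from 0.314 to 3.72 TPM (median 2.26) and males from 2.54 to 4.34 (median 2.96). Their difference was -0.42 ± 0.23 (adjusted p = 0.872), and it was a DEG without HFD female 1. HFD against CD in males was -0.41 ± 0.19 (p = 0.0514, adjusted p = 0.826, exact permutation p = 0.0563). It was a DEG there with no filter on low counts, with at least 10 counts in every library and with the smooth muscle score. The same held in log2(TPM + 0.1) and without CD male 3 or 4 or HFD male 5 or 6. In females HFD against CD was -0.01 ± 0.27 (adjusted p = 0.999), and the interaction of sex and diet, 0.39 ± 0.34, did not pass (adjusted p = 0.817). E2-treated males ran from 2.64 to 4.87 TPM (median 3.03) and overlapped both male vehicle groups. Ptgis shares up to 156 bases of an exon with the antisense gene 1110018N20Rik.

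Hpgd, the enzyme that inactivates prostaglandin E2, passed in no comparison, with the deepest counts of the 10. It ran from 80.7 to 111 TPM in CD females (median 94.5), from 96.7 to 136 in CD males (median 118), from 93.1 to 133 in HFD females (median 108), from 111 to 189 in HFD males (median 131) and from 99.1 to 158 in E2-treated males (median 113). Male medians were above female medians on both diets, with overlap. The log2 fold changes of females against males were -0.17 ± 0.11 on CD (adjusted p = 0.536) and -0.24 ± 0.14 on HFD (adjusted p = 0.872). HFD in males gave 0.19 ± 0.12 (adjusted p = 0.839) and E2 in HFD males -0.06 ± 0.12 (adjusted p = 0.856). Across the 6 comparisons no estimate for Hpgd exceeded 0.24 in size.

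Ptger4, the EP4 receptor for prostaglandin E2, was as even. CD females ran from 4.75 to 8.44 TPM (median 6.10), CD males from 3.81 to 6.77 (median 6.05), HFD females from 5.49 to 6.73 (median 6.37), HFD males from 5.11 to 7.58 (median 5.53) and E2-treated males from 3.38 to 6.32 (median 5.17). All groups overlapped. Its largest estimate was 0.21 ± 0.14 on the log2 scale, higher in CD females than in CD males (adjusted p = 0.518). Ptger4 shares up to 872 bases of exon with the antisense gene Gm15937 and 82 with Ttc33.

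Alox5 and Alox5ap, the enzyme and the activating protein that start leukotriene synthesis, were DEGs in no comparison in the main fits. Alox5 ran from 0.303 to 1.37 TPM in CD males (median 0.903) and from 0.0795 to 2.11 in HFD males (median 0.245). In TPM, 1 HFD male stood above all CD males and 4 lay below the lowest of them. In log2 CPM, the scale of the fits, CD males ran from 0.192 to 1.894 and HFD males from -0.206 to 1.554. On that scale no HFD male stood above the highest CD male, and HFD male 2 alone lay below the lowest. The log2 fold change between these groups was -0.71 ± 0.34 (SE, p = 0.0519, adjusted p = 0.826, exact permutation p = 0.0909). Alox5 was a DEG here with no filter on low counts, in one fit of all 30 libraries, with the replicate number as a block, and without CD male 1 or 5 or HFD male 6, without which it was -1.04. CD females ran from 0.186 to 1.39 TPM (median 0.687), HFD females from 0.175 to 1.17 (median 0.773) and E2-treated males from 0.122 to 1.08 (median 0.529). The interaction of sex and diet for Alox5 was 0.80 ± 0.45 (adjusted p = 0.743). Alox5 was also a DEG for the sexes on CD without CD male 5. Without HFD male 6 it was a DEG for the sexes on HFD and for E2 in HFD males. Alox5ap ran from 0.419 to 1.58 TPM in CD females (median 1.197), from 1.05 to 2.64 in CD males (median 1.46), from 0.852 to 2.83 in HFD females (median 1.62), from 0.833 to 2.77 in HFD males (median 1.68) and from 0.617 to 2.30 in E2-treated males (median 1.91). Its largest estimate was 0.44 ± 0.27 for HFD in females (adjusted p = 0.999). There it was a DEG with the smooth muscle score as a covariate and without the libraries with squamous markers. Alox5ap shares up to 107 bases of an exon with the antisense gene Gm19719.

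Alox15, the 12/15-lipoxygenase (ENSMUSG00000018924, GRCm38 chr11:70344152-70352031, minus strand), was a DEG in more comparisons than any other of the 10 genes. It was higher in CD males than in CD females and HFD males and spread widely in HFD females. CD males had 1.34, 1.80, 2.04, 2.11, 1.24 and 1.5 TPM, from 31 to 55 counts each. CD females had 0.993, 0.828, 0.472, 0.995, 0.0441 and 0.368 TPM, from 7 to 22 counts each. Each CD female was below each CD male. The means were 0.617 ± 0.385 and 1.67 ± 0.363 TPM (SD, n = 6 each), and the log2 fold change was -1.25 ± 0.27 (SE, p = 3.12e-04, adjusted p = 0.0204), with an exact permutation p of 0.00216. The call by unadjusted p held in 21 of 21 alternatives. The adjusted p rose above 0.05 without CD male 2, 3 or 4 (up to 0.0534), with all 30 libraries in one fit (0.0736), and with the squamous (0.0613) or smooth muscle score (0.233) as a covariate, in a range over all alternatives that began at 0.00100.

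HFD males had 0.151, 0.236, 0.607, 0.623, 0.557 and 0.298 TPM of Alox15, from 7 to 21 counts each. Each of them was below each CD male. The log2 fold change for HFD in males was -1.35 ± 0.28 (SE, p = 1.89e-04, adjusted p = 0.295), with an exact permutation p of 0.00216. It kept its sign and stayed past the unadjusted threshold in 22 of 22 alternatives, from -1.88 to -0.92, with adjusted p-values from 0.0144, in DESeq2, to 0.725, without CD male 4. The 2 HFD males with squamous markers had 0.236 and 0.623 TPM, and without them the estimate was -1.52. These 2 comparisons share the CD males, and the values of CD females and HFD males overlapped.

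HFD females had 1.83, 0.775, 2.20, 0.878, 0.940 and 0.394 TPM of Alox15, from 11 to 55 counts each. In TPM the highest exceeded all CD males, the next lay within their range, and the other 4 lay within the range of CD females. In log2 CPM, the scale of the fits, HFD female 5 had 1.91 from 37 counts, level with HFD female 1 at 1.92 and above the highest CD female at 1.23. HFD against CD in females gave 0.91 ± 0.40 (SE, p = 0.0395, adjusted p = 0.843, exact permutation p = 0.126). HFD females against HFD males gave 1.01 ± 0.41 (p = 0.0255, adjusted p = 0.872, exact permutation p = 0.0801). The calls rested on few animals. The first was lost with log2(TPM + 0.1) or log2(TPM + 1) (exact permutation p = 0.156 and 0.147) and without HFD female 1, 3 or 5 or CD female 3, 5 or 6, and ran from 0.65 to 1.08 with 1 library left out. The second was lost without HFD female 1, 3 or 5 or HFD male 1 or 6, and ran from 0.77 to 1.19.

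The squamous markers moved with Alox15 in HFD females. HFD females 1 and 3, which had the highest Alox15, had marker sums of 1721 and 1830 TPM, whereas HFD female 4 had 1661 TPM and a lower Alox15, HFD female 5 had 300 TPM, and HFD females 2 and 6 had 4.29 and 2.65 TPM. Without the 6 libraries with squamous markers, HFD against CD in females was -0.33 (adjusted p = 0.9998) and HFD females against HFD males -0.079 (adjusted p = 0.9999), fits that kept 2 HFD females. With the squamous score as a covariate these were -0.34 (adjusted p = 0.9998) and 0.38 (adjusted p = 0.990), and neither was a DEG in either kind of fit. HFD males 2 and 4, with sums of 679 and 126 TPM, were the fifth and the highest of the 6 HFD males for Alox15, all of which were below the CD males.

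The response of Alox15 to HFD differed between the sexes by 2.25 ± 0.52 on the log2 scale (edgeR interaction of sex and diet in 24 libraries, adjusted p = 0.319). It stayed past the unadjusted threshold in 31 of 32 alternatives, with adjusted p-values from 0.0933 to 1.0. The exception was the fit without the libraries with squamous markers, in which it was 1.17 and not past the threshold. With the squamous score as a covariate it was 1.56 and with the smooth muscle score 1.54, both past it.

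HFD males given E2 had 0.361, 0.472, 0.613, 0.810, 1.70 and 1.204 TPM of Alox15, from 10 to 37 counts each. In TPM they covered the range from HFD males to CD males, with 3 animals above all HFD males. In log2 CPM E2-treated male 4, at 1.041, was below the highest HFD male, at 1.08. Against HFD males the log2 fold change was 0.59 ± 0.38 (SE, adjusted p = 0.551, exact permutation p = 0.223), which did not pass. Against CD males it was -0.77 ± 0.29 (p = 0.0171, adjusted p = 0.336, exact permutation p = 0.0281), and with the squamous score as a covariate -0.69, just short of the threshold (p = 0.0502).

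**Figure D3:**
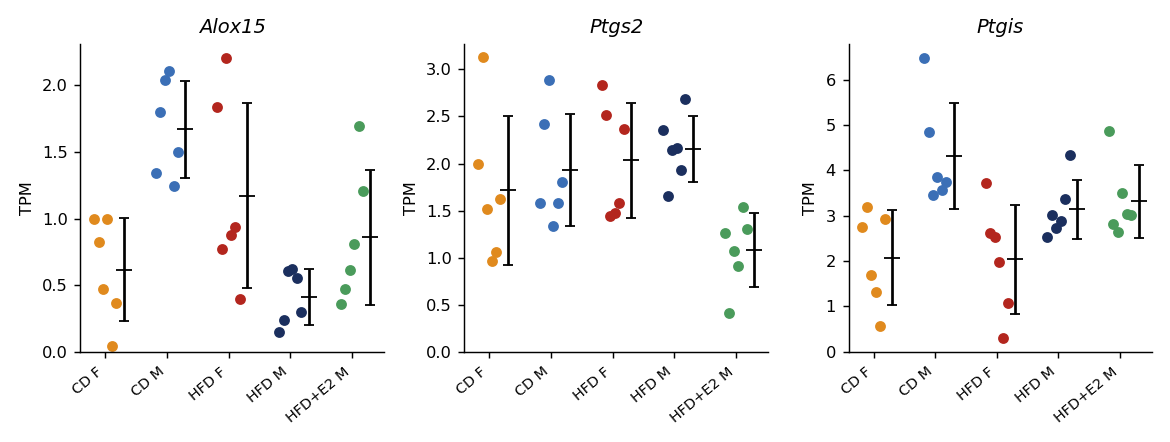
TPM of Alox15, Ptgs2 and Ptgis in each animal (points) by group, with the mean and SD beside each group (black). Alox15 is between 1.24 and 2.11 TPM in CD males and at most 0.623 TPM in HFD males, Ptgs2 is at most 1.54 TPM in E2-treated males against at least 1.66 TPM in HFD males, and Ptgis is at least 3.46 TPM in CD males against at most 3.19 TPM in CD females.

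Smooth muscle markers moved with Alox15 as well. The 10 markers, Myh11, Acta2 and Des among them, summed to 2538 to 3939 TPM in CD females, 3999 to 6673 in CD males, 2660 to 4624 in HFD females, 3833 to 6090 in HFD males and 3509 to 5838 in E2-treated males. All 10 were DEGs between CD females and CD males, lower in females, 6 of them by adjusted p. With their score as a covariate, Alox15 between these groups was -0.93 (adjusted p = 0.233), still a DEG. In HFD males against CD males 1 of the 10 markers was a DEG (background 2.9%), and all 10 had a negative estimate. The median log2 fold change of the markers was -0.298, against -0.0067 over all genes. The marker sum had a median of 5304 TPM in CD males and 4224 TPM in HFD males. Alox15 with the score as a covariate was -1.03 between these groups (adjusted p = 0.438), also still a DEG. For HFD against CD in females the score took Alox15 from 0.91 to 0.51 (adjusted p = 0.9996), no longer a DEG. Within groups, over the 30 libraries with group means subtracted, Alox15 had a Pearson r of 0.57 with the smooth muscle sum and of 0.51 with the squamous sum, and of -0.50 with the B cell sum, points that share library and depth. What part the muscle layer of a library had in the level of Alox15 or of Ptgis was not tested further.

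**Figure D4:**
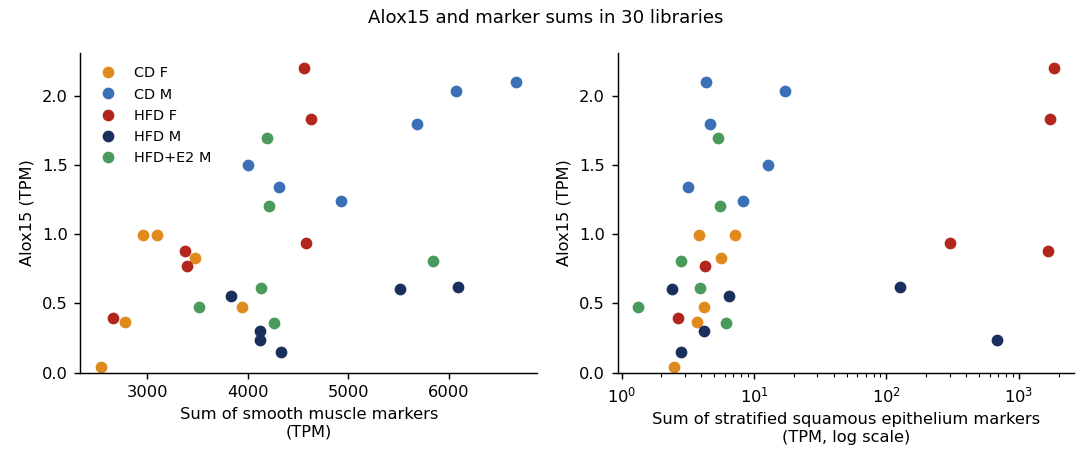
Alox15 in TPM against the summed TPM of 10 smooth muscle markers (left) and of 15 squamous epithelium markers (right, log axis) in the 30 libraries, coloured by group. CD males lie at 1.24 to 2.11 TPM of Alox15 and at muscle sums of 3999 to 6673 TPM (median 5304). HFD males lie at or below 0.623 TPM at muscle sums of 3833 to 6090 TPM (median 4224). The 2 HFD females above 1.8 TPM are those with squamous sums of 1721 and 1830 TPM.

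Other cell types known to hold lipoxygenases were read from their markers. The eosinophil markers summed to between 0.110 and 1.44 TPM. Group medians of this sum were 0.54 in CD females, 0.29 in CD males and 1.19 in HFD females. They were 0.44 in HFD males and 0.28 in E2-treated males. Of these markers, Epx had a count in 0 of 30 libraries, Ccr3 in 6, Prg2 in 11, Il5ra in 20, Siglecf in 26 and Cd300a in 30. The mast cell markers summed to 10.8 to 27.9 TPM, of which Kit, also a gene of the interstitial cells of Cajal, made up most. The macrophage markers summed to 109 to 238 TPM with overlap between all groups. Markers of peritoneal macrophages summed to 98.2 to 137 TPM in CD females, 152.4 to 249.1 in CD males, 124 to 152 in HFD females, 124 to 168 in HFD males and 95.9 to 204 in E2-treated males, so that CD males stood above CD females for this list too. Most of that sum was Fn1, at 185 TPM on average in CD males and 101 TPM in CD females. The more specific Timd4 and Vsig4 averaged 0.579 and 0.415 TPM in CD males and 0.210 and 0.135 TPM in CD females. Selp was also higher in CD males, and Gata6 only slightly so. Icam2 went the other way, at 0.666 TPM in CD males and 0.795 TPM in CD females. The fibroblast markers summed to 312 to 615 TPM in CD females and 559 to 923 in CD males, and 5 of 8 were DEGs, lower in females. The part of these cells in the level of Alox15 was not tested.

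The remaining lists were spread over the groups. Mesothelium markers summed to at most 1.74 TPM, and Upk3b was listed at 0 TPM throughout. Tuft cell markers summed to 2.03 to 6.80 TPM, with Il25 at 0 counts in 30 libraries. Neutrophil markers summed to 37.9 to 213 TPM, most of it Ly6g, whereas S100a8 and S100a9 were listed at 0 TPM in both CD groups and averaged 4.24 and 7.95 TPM in HFD females, 2.13 and 6.78 TPM in HFD males and 0 TPM in E2-treated males. S100a8 had a count in 13 libraries and S100a9 in 11. HFD females and HFD males are also the groups that hold the 6 libraries with squamous markers, and their part in this was not tested. Mpo and Retnlg reached at most 0.164 and 0.472 TPM. B cell markers summed to 0.121 to 60.1 TPM, and 5 of the 8 were DEGs between CD females and CD males, higher in females.

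Of the other genes of eicosanoid metabolism, 54 were listed and 30 to 33 were tested in each comparison. Between CD females and CD males, 6 of 31 were DEGs, all lower in females, against 9.15% of all genes tested. Of the 6, 3 held by adjusted p (background 2.74%). They were Mgll, the lipase that frees arachidonic acid from 2-arachidonoylglycerol, the secreted phospholipase gene Pla2g5, and Dpep1, a dipeptidase that converts leukotriene D4. Mgll was at 6.93 ± 1.37 TPM in CD females and 10.6 ± 1.55 TPM in CD males (SD, n = 6 each), without overlap, a log2 fold change of -0.57 ± 0.10 (SE, adjusted p = 0.00464). Pla2g5 was at 2.01 ± 0.372 and 5.34 ± 2.41 TPM, a log2 fold change of -1.16 ± 0.26 (adjusted p = 0.0247). Dpep1 was at 3.47 ± 0.744 and 6.86 ± 1.92 TPM, a log2 fold change of -0.86 ± 0.20 (adjusted p = 0.0255). In each case females were lower, as they were for Alox15 and Ptgis, and the median over the 31 genes was 0.0023, against 0.011 over all genes.

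By step of the pathway, these 6 DEGs (background 9.15%) were 2 of 10 genes of arachidonate release and 1 of 7 prostaglandin and thromboxane synthases. The rest were 2 of 5 prostanoid receptors and 1 of 3 leukotriene enzymes. No gene of prostaglandin breakdown and transport was among them (0 of 5, with 1 at an unadjusted p under 0.05). The leukotriene and lipoxin receptors had 1 gene tested, Cysltr1, at 1.30 TPM over all libraries, which passed in no comparison.

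On HFD the sexes differed in 1 of 30 of these genes (background 3.09%). It was Dpep1, at 3.49 ± 0.804 TPM in females and 6.02 ± 1.08 TPM in males (SD, n = 6 each), without overlap. Its log2 fold change was -0.73 ± 0.16 (SE, adjusted p = 0.167). HFD in females raised 2 of 31 (background 3.67%). Pla2g5 rose by 0.75 ± 0.18 on the log2 scale (adjusted p = 0.412) and Mgll by 0.53 ± 0.20 (adjusted p = 0.655). HFD in males changed 0 of 30 by edgeR (background 2.9%), with 1 at an unadjusted p under 0.05 but under the fold minimum. The interaction of sex and diet called 2 of 33 (background 5.18%). They were Pla2g5, at 1.07 ± 0.38 (adjusted p = 0.626), and the prostaglandin E receptor gene Ptger1, at 0.65 ± 0.32 (adjusted p = 0.733).

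E2 in HFD males changed 3 of 30 (background 5.87%), none by adjusted p. The prostaglandin reductase gene Zadh2 rose by 0.52 ± 0.12 on the log2 scale (SE, adjusted p = 0.389), with 11.1 to 14.3 TPM in E2-treated males and 7.71 to 11.01 TPM in HFD males. Ptgr1, which encodes another prostaglandin reductase, fell by 0.56 ± 0.17 (adjusted p = 0.455), and Ptges3, which encodes a cochaperone also described as a cytosolic prostaglandin E synthase, fell by 0.43 ± 0.15 (adjusted p = 0.456). Against CD males, 2 of 30 were DEGs (background 5.99%). The E2-treated group was lower in Ptgr1, with a log2 fold change of -0.55 ± 0.13 (adjusted p = 0.0762). It was higher in the phospholipase gene Pla2g4f, with 0.54 ± 0.16 (adjusted p = 0.171).

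None of the 5 other lipoxygenase genes passed the filter on low counts. Alox12, the platelet-type 12-lipoxygenase, and Alox12b, a lipoxygenase of the epidermal barrier, were seen where the squamous markers were. Alox12 had 4.92, 3.13 and 0.870 TPM in HFD females 1, 3 and 4 and 2.12 TPM in HFD male 2, and at most 0.335 TPM elsewhere. Alox12b had 2.91, 3.26, 2.90 and 0.644 TPM in HFD females 1, 3, 4 and 5 and 1.52 TPM in HFD male 2. Alox12e reached 3.91 TPM in HFD female 3, and Alox8 did not exceed 0.293 TPM in any library.

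Among the 10 genes themselves, 30 of the 45 pairs had a positive correlation within groups (log2 CPM with group means subtracted, 30 libraries), and most were weak. The strongest was between Ptgis and Hpgd, with a Pearson r of -0.705 and a Spearman rho of -0.709, so that a library with more prostacyclin synthase RNA for its group had less of the breakdown enzyme. Ptgs2 and its downstream receptor gene Ptger4 had an r of 0.62, and Alox5ap and Pla2g4a an r of 0.55. These points share library and depth and are given as a description.

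The genes most like each of the 10 over the same libraries are also descriptive. Ptger4 was closest to the Notch ligand gene Dll4 (r = 0.88) and to Sox9 (0.83), a transcription factor gene of the crypt base, followed by 4931406P16Rik, Fgfr3 and Sertad1. Pla2g4a was closest to Cpd (0.87), Ak3, Soat1, Itch and Asah1, and Hpgd to Sec62 (0.85), Gpbp1l1, Usmg5, Cd2ap and Cep350. Ptgis was closest to the ribosomal protein gene Rps19 (0.83), Limd1, Gnb2l1 and Tnpo2. Ptgs1 was closest to Fkbp14 (0.79), Cds2, Chid1, Cd320 and Tspan13.

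Alox5ap was closest to the ceruloplasmin gene Cp (0.78), Lepr, Lpcat2, the macrophage mannose receptor gene Mrc1 (0.72) and Zfp597, and it had an r of 0.75 with the summed macrophage markers. Ptges was closest to the matrix metalloproteinase gene Mmp2 (0.79) and to Csf1r (0.74), the receptor gene of macrophage colony-stimulating factor, followed by Def8, Mpdu1 and Dnajc22. Alox15 was closest to Smyd2 (0.68), Reep4, Angptl2, Bcam and the smooth muscle actin gene Acta2 (0.66). Ptgs2 was closest to Tob1 (0.64) and Ptger4, followed by Gpr37l1, Pawr and Pogk. For Alox5, at its low counts, no gene exceeded 0.60.

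**Figure D5:**
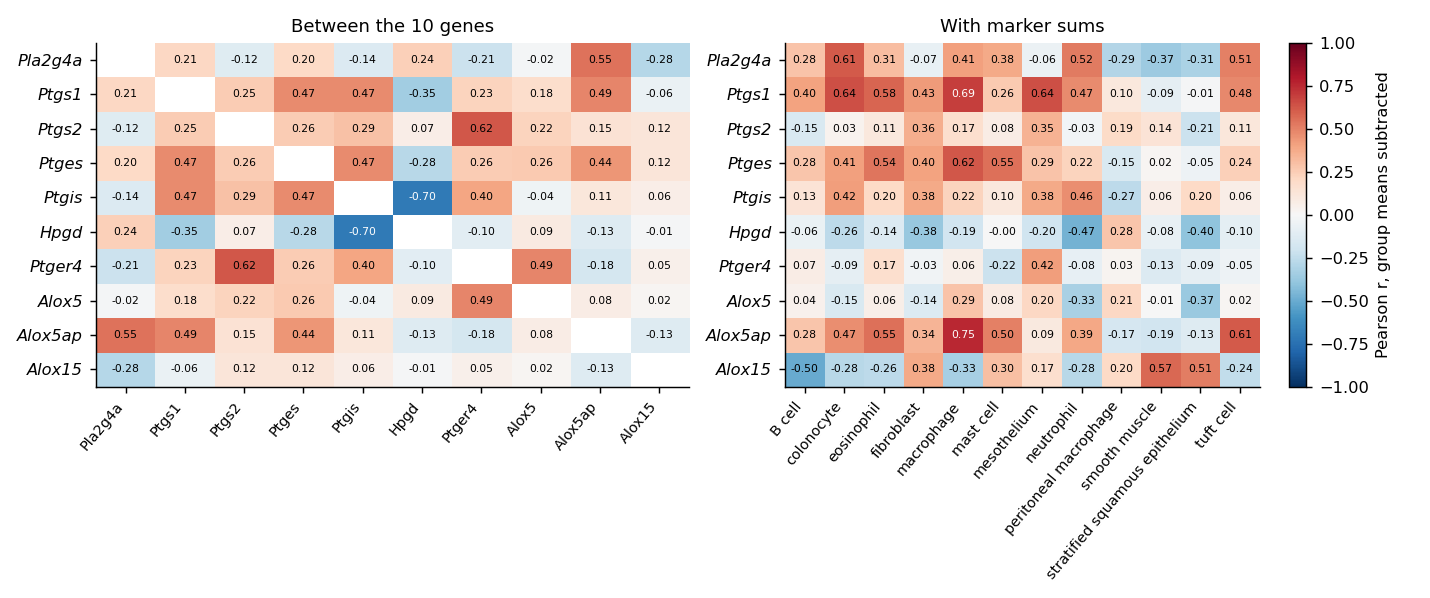
Pearson correlations over 30 libraries after subtracting group means, between the 10 genes (left, log2 CPM) and of each gene with the summed markers of 12 cell types (right). Colour and printed values run from -1 (blue) to 1 (red): Ptgis with Hpgd is the lowest pair at -0.705, Ptgs2 with Ptger4 the highest at 0.62, and Alox5ap with macrophage markers is at 0.75.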

How the data were processed

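The authors trimmed the reads of ribosomal RNA-depleted, stranded paired-end libraries with Trim Galore, mapped them to GRCm38 with STAR and deposited raw featureCounts counts per gene. The authors also deposited StringTie TPM values, used here for levels, and FPKM values, which were not used. Counts come from reads without molecular identifiers, and total counts ranged from 8667177 to 17243712 per library.

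Each comparison was fitted on the whole table with edgeR 4.0.16 in R 4.3.3 (filterByExpr, TMM, robust quasi-likelihood F-test) on the libraries compared, and the interaction on 24. A DEG had p under 0.05, taken as unadjusted since the study does not say, and a log2 fold change over 0.4. Adjusted p-values are Benjamini-Hochberg over all genes tested. SE were derived from F. Beside the fit, an exact permutation test (two-sided, 924 splits) compared log2 CPM, made with a prior count of 2. Groups and replicates followed the titles, and the animals are biological replicates per the series' text.

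The 10 genes and all lists were chosen with earlier results of these data known. All 10 are described in each comparison. Other pathway genes are named when past the adjusted threshold or, where none was, up to 3 with the lowest p among DEGs, and for likeness the 5 highest Pearson r among genes averaging at least 1 TPM, of which 1 is not reported here. Alternatives were DESeq2 1.42.0, its size factors, other filters, one fit, a replicate block, no fold minimum, libraries left out, marker scores as covariates, log2 TPM with 0.1 or 1 added and, chosen after seeing the data, leaving out 6 libraries with squamous markers. The fit was tested on simulated data.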

Additional observations from a re-analysis of the deposited data

Results flagged for a closer look

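Among 50 tests on log2 CPM of a single animal standing apart (10 genes in 5 groups of 6, of which chance would mark about 1 in 20), 1 animal was marked: CD female 3 for Alox5, at 0.186 TPM and -0.218 in log2 CPM, the lowest of its group on both scales. In TPM it lay closer to the others, of which the next was at 0.479. The sexes differed in the response of Alox15 to HFD by 2.25 on the log2 scale (edgeR interaction, adjusted p = 0.319), with HFD against CD at 0.91 in females and -1.35 in males. Squamous epithelium markers were high in 4 of the 6 HFD females and 2 of the 6 HFD males, and without those libraries the difference was 1.17 and no longer past the unadjusted threshold. Their part in it was not tested beyond these fits.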

How the results depend on the processing

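Counts of the 10 genes called moved as follows, and the cause was not tested unless stated. The backgrounds above are those of the main fits and do not apply to these alternatives. The share of all genes called in each alternative is not given here, so these moves cannot be set against it. With at least 10 counts in every library, Alox15 was tested only between E2-treated HFD males and CD males, where it was still a DEG, and the counts by unadjusted p became 1 for the sexes on CD, 0 for the sexes on HFD, 0 for HFD in females and 0 for the interaction, and 0 by adjusted p for the sexes on CD. For HFD in males the 1 DEG under this filter was Ptgis. DESeq2 gave 2 by adjusted p for the sexes on CD (Ptgis and Alox15), 1 for HFD in males and 1 for E2 in HFD males. Without a filter there were 2 by adjusted p for the sexes on CD and 3 by p for HFD in males. One fit of all 30 libraries gave 0 by adjusted p for the sexes on CD and 2 for HFD in males. The squamous score gave 0 by adjusted p for the sexes on CD, 0 for the sexes on HFD, 0 for HFD in females, 1 for E2-treated against CD males and 2 for the interaction. The smooth muscle score gave 2 for HFD in females (Ptges and Alox5ap) and 2 for HFD in males, and log2(TPM + 1) gave 0 for HFD in females and log2(TPM + 0.1) 2 for HFD in males. Without the libraries with squamous markers there were 0 for the sexes on HFD and 0 for the interaction, and Alox15 reversed to -0.079 for the sexes on HFD and to -0.33 for HFD in females, as it did with the squamous score (-0.34). Alox5ap was the 1 DEG for HFD in females without those libraries. With the replicate number as a block there were 2 by adjusted p for the sexes on CD and 2 by p for HFD in males. Whether the numbers pair the animals was not settled. Of 36 same-numbered pairs of animals, 22 correlated over 0.1 in their deviations from the group means. Correlations over all 36 ran from -0.52 to 0.60, and 11 pairs were best with their own number. The block moved no other count.

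With 1 library left out, counts ran from 0 to 2 by adjusted p and from 2 to 3 by unadjusted p for the sexes on CD, from 0 to 1 for the sexes on HFD, from 0 to 2 for HFD in females, from 1 to 3 for HFD in males, from 1 to 2 for E2 in HFD males and from 1 to 2 for the interaction. The genes that joined were Ptgis, Ptges, Alox5 (among others without CD male 5 or HFD male 6) or Ptgs1 (without CD female 1). Of 715 single-gene values under the other alternatives, 656 kept direction and side of the threshold. Most of these belong to genes not called in the main fits, so the number says little of the calls. Over all alternatives Alox15 stayed called in 11 of 22 for HFD in females and in 15 of 22 for the sexes on HFD. Each other call was kept in all or nearly all of its alternatives.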
